A study of Homo sapiens with 18 samples.

Results

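Neuroendocrine and neuronal secretory genes were followed in 3 human prostate cancer cell lines after knockdown of EMD. The 32 genes were given by symbol, matched by symbol in the DU145 table and by Ensembl identifier in the tables of 22Rv1 and C4-2B, out of 41440 genes found in at least 1 table. All 32 have an entry in the DU145 table, 30 have one in 22Rv1 and 18 have one in C4-2B. Genes of few reads are absent from the tables of 22Rv1 and C4-2B, so a gene without an entry there was not analysed rather than found silent. The rule uses no measured value, but the members were chosen with earlier results of these data known.

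RNA was sequenced in 18 libraries, 3 control and 3 EMD knockdown libraries in each line. EMD encodes emerin, a protein of the inner nuclear membrane. C4-2B is a castration-resistant line of the LNCaP lineage, 22Rv1 comes from a relapsed prostate cancer xenograft, and DU145 was derived from a metastasis in the brain. By the stated protocol, control cells received a scrambled siRNA and knockdown cells an siRNA against EMD, both with a lipid reagent whose mix was taken off after 24 hours. DU145 knockdown libraries are however named with "shEMD", the usual mark of a hairpin vector, which disagrees with that protocol. The medium was DMEM for DU145 and RPMI-1640 for 22Rv1 and C4-2B, with serum in each. The time of harvest is not given, and nothing says whether the triplicates were separate cultures, so p-values measure the spread between these libraries, which may be technical. Since every line was deposited as a separate table under a separate batch label, effects of line, batch and table (and of medium for DU145) cannot be told apart when lines are compared.

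Neuroendocrine cells store peptides in dense-core granules. Granins such as chromogranin A pack the cargo, prohormone convertases cut it, and RAB3, syntaxin, SNAP25 and synaptotagmins drive calcium-triggered fusion with the plasma membrane. In most other cells the zinc finger repressor REST keeps many of these genes off. Some prostate adenocarcinomas take on this programme as they progress, with factors such as INSM1, FOXA2, POU3F2, ONECUT2 and MYCN, and with the splicing factor SRRM4, which yields a truncated form of REST.

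Several granule genes carry a cyclic AMP response element near their start, a site bound by CREB-family factors, and the full palindrome TGACGTCA was looked for in the RefSeq promoter windows, from 250 bases before to 50 after a start. Of the 24 members with a window (35 windows on GRCh38.p14), 3 held it, each in 1 window, so that 3 of the members' 35 windows and 1.85% of all 35116 windows did. The palindrome reads the same on both strands. These 3 sites are shown because the genes moved in different directions in 22Rv1: CHGA rose, and PCSK1 and GNAO1 fell. Capitals mark the palindrome, and each sequence is written 5′ to 3′ on the strand of its gene.
CHGA, chr14:92923085-92923114, plus strand: ggcggcaccgcTGACGTCAtttccggggtc
PCSK1, chr5:96433307-96433336, minus strand: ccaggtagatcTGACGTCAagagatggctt
GNAO1, chr16:56191330-56191359, plus strand: cgcggccctgcTGACGTCAgctggcggccc
The first base of the palindrome lies 54 bases before the RefSeq start of CHGA, 77 before that of PCSK1 and 148 before that of GNAO1. In GENCODE 29 the CHGA site falls inside an annotated 5′ exon of CHGA, the PCSK1 site inside the PCSK1 gene but in none of its exons, and the last 13 bases of the GNAO1 site in an exon of GNAO1. The consensus of the RE1 element bound by REST was found in 0.0683% of all windows and in 0 of the members' windows. With so low a share, 0 of 35 windows does not show that members lack REST sites. Sites outside the windows were not looked for. A match is a run of letters, not a measured binding site.

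Expression was read first as CPM, counts scaled to a common library total, over the summed gene counts of a library, with a gene called expressed at a mean of 1 CPM or more in either arm, low from 0.1 CPM, and at or near 0 below that. In 22Rv1, 25 of 30 members were expressed, INSM1 and FOXA2 were low, and SCG5, NCAM1 and UCHL1 were at or near 0. In DU145, 18 of 32 were expressed, 11 were low, and PCSK1, INSM1 and MYCN were at or near 0. In C4-2B, 10 of 18 were expressed and 8 were low, while CHGA, CHGB, SCG2, SCG3, PCSK1, PCSK2, SNAP25, NCAM1, INSM1, NEUROD1, FOXA2, MYCN, ELAVL3 and ELAVL4 have no entry. By these counts most granule and vesicle genes were expressed in 22Rv1, while in DU145 4 of the 5 cargo genes were low.

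There were 9 members expressed in all 3 lines: SYP, SYT11, STX1A, RAB3A, L1CAM, ENO2, NKX2-1, ONECUT2 and REST. PCSK2, INSM1 and NEUROD1 reached 1 CPM in no line. A further 10 reached it in 22Rv1 and in neither other table: CHGA, CHGB, SCG2, SCG3, PCSK1, MYCN, ELAVL3, ELAVL4, SRRM4 and CELF3. Of these 10, all but SRRM4 and CELF3 have no entry in C4-2B and were not analysed there. By number of expressed members the label describes 22Rv1 best, with exceptions. NCAM1, a surface marker used for neuroendocrine tumours, was at or near 0 there and INSM1 below 1 CPM. UCHL1, SCG5 and NKX2-1 stood higher in DU145. UCHL1 averaged 627 CPM in the DU145 controls and 0.04 CPM in those of 22Rv1, and NKX2-1 124 and 8.64 CPM.

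**Figure D1:**
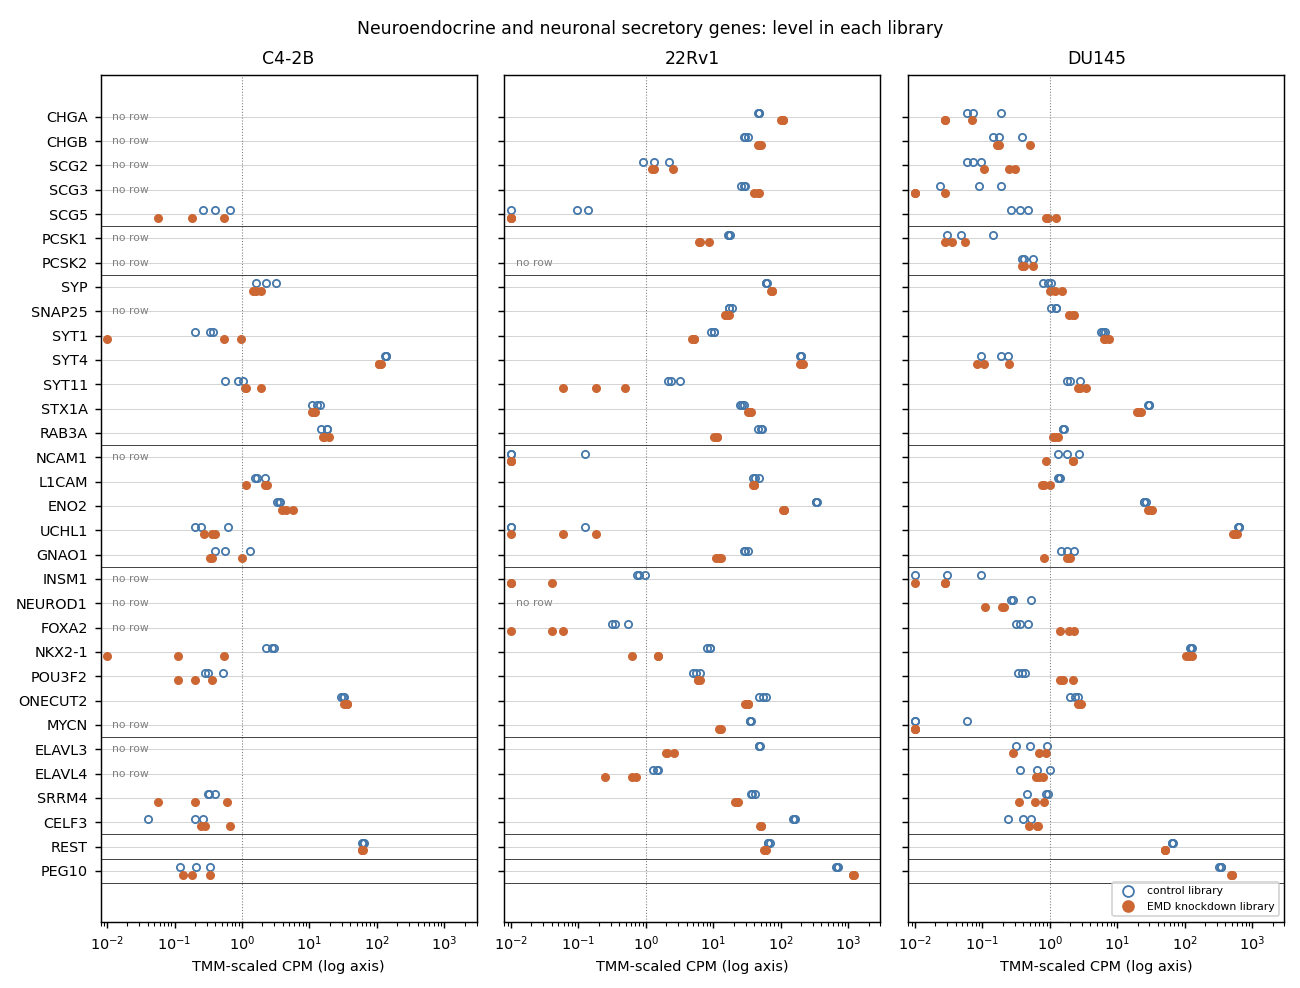
Level of each member in each library, in TMM-scaled CPM on a log axis, with values below 0.01 drawn at 0.01; open circles are the 3 control libraries and filled circles the 3 EMD knockdown libraries of a line, and the dotted line marks 1 CPM. The cargo genes CHGA, CHGB and SCG3 lie above 1 CPM in 22Rv1 and below it in DU145, while SCG5 lies higher in DU145 than in 22Rv1.

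Levels of different genes were compared as CPM per kilobase of annotated exon. Among the members in the 22Rv1 control libraries, PEG10, an imprinted gene derived from a retrotransposon, stood highest at 101 CPM per kilobase. ENO2, the neuron-specific enolase, followed at 78.0, then the synaptotagmin SYT4 at 44.4, the RNA-binding protein CELF3 at 34.9 and the vesicle GTPase RAB3A at 27.4. CHGA stood at 15.2. In the DU145 control libraries UCHL1, a neuronal deubiquitinase, led at 275 CPM per kilobase, ahead of PEG10 at 49.9 and NKX2-1, the lineage factor of lung and thyroid, at 39.2. In C4-2B the highest were SYT4 at 30.6, RAB3A at 9.45 and REST at 7.79. These orders are descriptions, since exon length is only a proxy for the transcript present.

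The targeted gene checked the labels: EMD (chromosome X, 154379197 to 154381523, plus strand, GRCh38) fell in every line, with all knockdown libraries below all control libraries. Its log2 fold change was -3.07 ± 0.11 (SE) in C4-2B, -1.73 ± 0.07 in 22Rv1 and -3.21 ± 0.08 in DU145. Library totals ran from 14722733 to 43311727 reads over the 18 libraries. Here and below, levels are TMM-scaled CPM as mean ± SD of 3 libraries, fold changes are log2 ratios of knockdown to control ± SE, and adjusted p-values come from edgeR's quasi-likelihood test over all genes of a line. A gene is said to rise, fall or change only at an adjusted p under 0.05.

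Most of the members tested in 22Rv1 changed, and they went both ways: most granule cargo rose, while the neuronal RNA-binding proteins and most transcription factors fell. Of 26 members tested, 6 rose, 15 fell and 5 did not pass. Among those that fell, INSM1, SYT11 and ELAVL4 passed the filter on low counts through the control arm, which favours a fall. Over all genes tested in 22Rv1, 33.5% rose and 34.3% fell (67.8% in either direction), so a high number of changed members is not particular to them. Falls of 2-fold or more were found for 11 of the 26 members and for 14.7% of all genes. The median log2 fold change of the tested members was -0.77, beside 0.00 over all genes. Knockdown libraries lay clear of the control libraries for 21 of the 26 members tested (80.8%), which are the 21 that changed, and for 71% of all genes. In these bulk libraries, fewer cells of a type and less RNA per cell cannot be told apart.

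**Figure D2:**
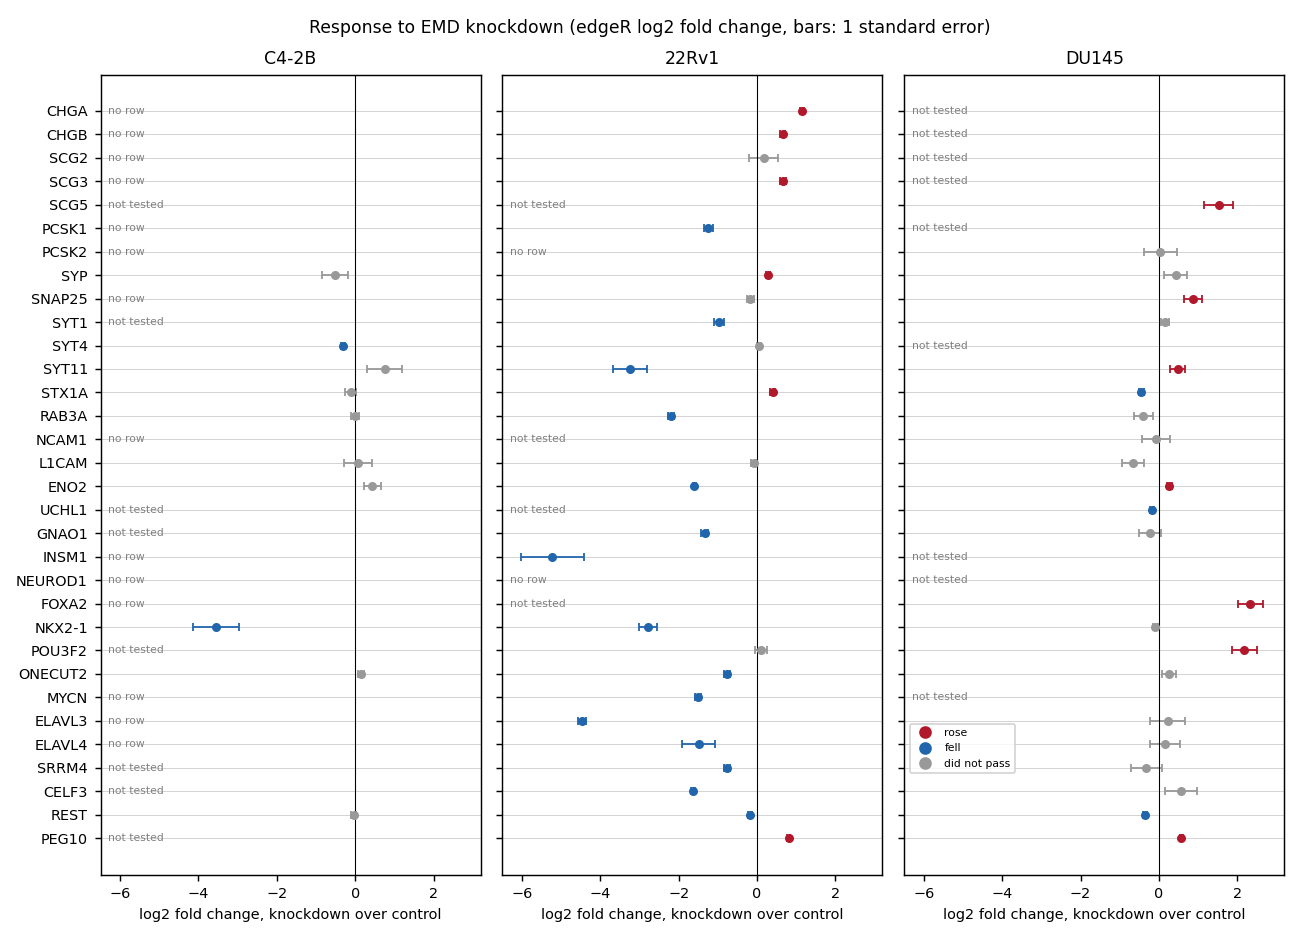
log2 fold change of knockdown over control for each member, with bars of 1 SE; red rose, blue fell and grey did not pass the edgeR test at an adjusted p of 0.05. In 22Rv1 the points spread from INSM1 at -5.23 to CHGA at 1.16, while in DU145 FOXA2, POU3F2 and SCG5 lie farthest to the right.

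Granule cargo of 22Rv1 rose in 3 of the 4 members tested. CHGA encodes chromogranin A, the main granin and a serum marker of neuroendocrine tumours. It lies on chromosome 14 from 92923080 to 92935293 (plus strand), and its counts cover the whole gene, as they do for every gene here. Control libraries 1 to 3 gave 45.7, 47.9 and 47.6 CPM and knockdown libraries 107, 107 and 101 CPM. All 3 knockdown libraries stood above all controls, at about the same height. The change was 1.16 ± 0.05 (adjusted p = 4.39e-14). CHGB, which encodes the granin chromogranin B, had control levels of 29.3, 28.2 and 32.6 and knockdown levels of 50.0, 47.1 and 45.3 CPM (0.65 ± 0.07, adjusted p = 3.69e-08). SCG3, secretogranin III, which ties chromogranin A to the granule membrane, had 28.0, 26.0 and 29.4 CPM in controls and 46.0, 39.8 and 47.1 CPM in knockdowns (0.67 ± 0.07, adjusted p = 7.46e-08). Neither gene's arms overlapped. SCG2, secretogranin II, was near the lower end of what was tested, at 1.47 ± 0.67 CPM in controls and 1.69 ± 0.71 CPM in knockdowns with overlapping libraries (0.17 ± 0.37, adjusted p = 0.702). SCG5, which encodes the chaperone 7B2 of the convertase PCSK2, had 7 reads over the 3 controls and 0 over the knockdowns. With the knockdown arm set at a floor of 3 reads, the ratio of control over knockdown is 1.86. It leaves out the counting error of the control reads, so it is no lower bound. Control library 2 also had 0 reads, so the arms overlapped, and with no filter SCG5 did not pass (adjusted p = 0.133).

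The convertase went the other way from the cargo. PCSK1, the prohormone convertase that cuts proinsulin and other prohormones (chromosome 5, 96390415 to 96434143, minus strand), had 17.6, 17.2 and 16.4 CPM in the controls. Its knockdown libraries had 8.76, 6.12 and 6.36 CPM. Every knockdown library was thus well below every control, and the fall was -1.24 ± 0.12 (adjusted p = 2.24e-08). PCSK2 has no entry in the 22Rv1 table.

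Vesicle and fusion genes of 22Rv1 split, with 2 up, 3 down and 2 not passing. SYP encodes synaptophysin, a vesicle membrane protein used to stain neuroendocrine tumours. It had 59.9, 62.9 and 60.5 CPM in controls and 74.4, 74.6 and 72.0 CPM in knockdowns, a small rise without overlap (0.27 ± 0.05, adjusted p = 5.18e-05). STX1A, the syntaxin of the plasma membrane fusion complex, rose from 26.3 ± 1.83 to 34.4 ± 2.00 CPM (0.39 ± 0.07, adjusted p = 6.31e-05). STX1A shares 662 exonic bases with BUD23 on the other strand, and BUD23 also rose (0.12 ± 0.04, adjusted p = 0.0204); the strandedness of the libraries is not stated, so reads of the overlap cannot be assigned.

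RAB3A, the GTPase that holds vesicles at the release site, had the strongest fall of a well-expressed vesicle member. Controls gave 51.0, 51.8 and 46.4 CPM and knockdowns 10.1, 11.3 and 11.4 CPM. No knockdown library came near the controls (-2.19 ± 0.08, adjusted p = 3.07e-15). Its antisense neighbour MPV17L2, which shares 165 exonic bases, moved the other way (0.50 ± 0.07, adjusted p = 3.2e-06). SYT1, the calcium sensor of fast release, fell from 9.84 ± 0.63 to 5.02 ± 0.25 CPM (-0.98 ± 0.13, adjusted p = 1.29e-06). SYT11, a synaptotagmin that does not bind calcium, had 3.18, 2.37 and 2.14 CPM in controls and 0.49, 0.18 and 0.06 CPM in knockdowns. Its fall was -3.23 ± 0.44 (adjusted p = 1.58e-06) and -4.37 without knockdown library 1, the highest of its arm; under cyclic loess scaling it was -2.61. SYT4, a granule synaptotagmin and one of the most abundant members, lay between 193 and 213 CPM in all 6 libraries (0.05 ± 0.04, adjusted p = 0.295), and its direction turned under library-total scaling (-0.03) and under loess scaling, where it passed as lower (-0.09, adjusted p = 0.0474). SNAP25, which pairs with syntaxin, had 17.7 ± 1.26 and 15.7 ± 1.06 CPM (-0.18 ± 0.09, adjusted p = 0.101) and passed under library-total scaling (adjusted p = 0.0205).

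Of the adhesion, enzyme and G protein genes of 22Rv1, ENO2 and GNAO1 fell. ENO2 (chromosome 12, 6913745 to 6923698, plus strand) is the glycolytic enolase of neurons and neuroendocrine cells. Its controls had 328, 334 and 340.0 CPM and its knockdowns 111, 110.2 and 107 CPM. The libraries of each arm lay close together and the arms lay far apart (-1.61 ± 0.04, adjusted p = 4.99e-18). GNAO1 encodes the alpha subunit of Go, which curbs calcium channels and secretion. It went from 32.4, 28.9 and 29.2 CPM to 10.9, 12.2 and 13.1 CPM (-1.34 ± 0.09, adjusted p = 5.8e-11). L1CAM, an axonal adhesion molecule, had 42.3 ± 4.44 and 39.8 ± 0.95 CPM with overlapping libraries (-0.08 ± 0.07, adjusted p = 0.351). It passed under loess scaling (adjusted p = 0.0377). UCHL1 had 2 reads over the controls and 4 over the knockdowns, and NCAM1 2 and 0.

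Among transcription factors of 22Rv1, 4 of 5 tested fell. MYCN, a MYC family oncogene of neural and neuroendocrine tumours, had 36.3, 34.7 and 35.4 CPM in controls and 12.3, 12.5 and 12.9 CPM in knockdowns. The arms were narrow and separate (-1.50 ± 0.08, adjusted p = 6.44e-13). ONECUT2, a homeodomain factor linked to loss of androgen receptor output, fell from 53.9 ± 7.08 to 31.5 ± 1.56 CPM (-0.77 ± 0.09, adjusted p = 2.41e-06). NKX2-1 had 8.64 ± 0.60 CPM over the controls and 1.21 ± 0.52 CPM over the knockdowns (-2.78 ± 0.22, adjusted p = 6.76e-10). Its antisense gene NKX2-1-AS1, which shares 402 exonic bases, fell too (-2.11 ± 0.53, adjusted p = 0.00151). INSM1, a zinc finger factor of endocrine differentiation, rested on few reads: 66 over the controls and 1 over the knockdowns. That is a ratio of 52.6 of control over knockdown per read sequenced, with an exact 95% interval of 9.12 to 2108 for counting error only. The fitted change of INSM1 was -5.23 ± 0.80 (adjusted p = 8.1e-06), but -2.39 under loess scaling and -7.23 without knockdown library 1, which holds the single read.

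FOXA2, a pioneer factor of endoderm and of neuroendocrine prostate tumours, missed the filter on low counts in 22Rv1 with 32 and 2 reads per arm. Its ratio of control over knockdown was 12.8 (exact 95% interval 3.25 to 110, counting error only), and with no filter its adjusted p was 0.00372. POU3F2, a neural POU factor also called BRN2, had 5.65 ± 0.64 and 6.04 ± 0.23 CPM with overlapping libraries (0.11 ± 0.15, adjusted p = 0.543). Under loess scaling POU3F2 passed as higher (0.34, adjusted p = 0.0424). NEUROD1 has no entry in this table.

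All 4 neuronal RNA-binding and splicing members fell in 22Rv1. ELAVL3 (chromosome 19, 11451326 to 11481046, minus strand) is a neuronal Hu protein that binds AU-rich elements. It had 49.3, 48.0 and 47.9 CPM in controls and 2.03, 1.96 and 2.65 CPM in knockdowns. No knockdown library came near a control, and the change was -4.46 ± 0.10 (adjusted p = 4.99e-18). CELF3, a neuronal splicing regulator, went from 160.2, 154 and 150.4 CPM to 50.0, 51.3 and 48.6 CPM (-1.63 ± 0.05, adjusted p = 9.23e-17). SRRM4, which promotes inclusion of neuronal microexons, went from 41.8, 36.2 and 36.8 CPM to 22.7, 21.2 and 23.3 CPM (-0.78 ± 0.07, adjusted p = 1.1e-08). For both genes every knockdown library was below every control. ELAVL4, another Hu protein, fell from 1.41 ± 0.11 to 0.52 ± 0.24 CPM (-1.49 ± 0.42, adjusted p = 0.00352), a call that was lost under loess scaling (-0.82, adjusted p = 0.0634).

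REST itself fell slightly in 22Rv1, from 69.1, 63.7 and 64.6 CPM to 55.6, 60.7 and 58.2 CPM (-0.18 ± 0.05, adjusted p = 0.00542). PEG10 had 713, 653 and 671 CPM in controls and 1204, 1158 and 1190.2 CPM in knockdowns. It was the most abundant member and rose without overlap (0.80 ± 0.03, adjusted p = 6.41e-14). SGCE, which shares 219 exonic bases with PEG10 on the other strand, fell (-0.30 ± 0.05, adjusted p = 2.73e-05).

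**Figure D3:**
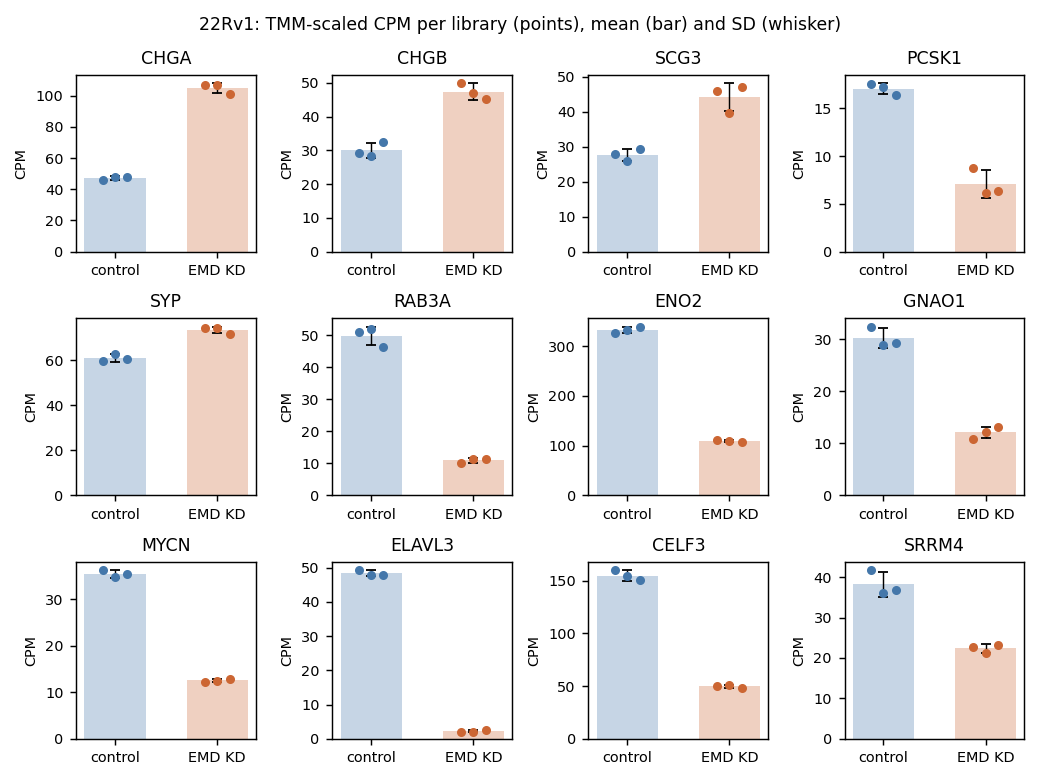
TMM-scaled CPM in 22Rv1 for 12 members, with 1 point per library, bars at the mean and whiskers of 1 SD (n = 3 per arm), each panel on its own axis from 0. CHGA, CHGB, SCG3 and SYP stand higher in knockdown, and the other 8 stand lower.

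In 22Rv1 the response of all genes depended on level. The median log2 fold change was -0.79 for genes averaging under 0.5 CPM, -0.44 from 0.5 to 2, -0.33 from 2 to 10, -0.03 from 10 to 30, 0.13 from 30 to 100 and 0.15 from 100 CPM. RAB3A, SRRM4, ONECUT2, CELF3 and ENO2, which fell, average over 30 CPM, and INSM1, SYT11 and ELAVL4, which fell as well, average under 2 CPM. INSM1 had 1, 0 and 0 reads in the knockdown libraries, SYT11 12, 3 and 1, and ELAVL4 6, 10 and 12. INSM1, SYT11 and ELAVL4 thus passed the filter on low counts through the control arm. That route favours a fall, so these members lend no support to the count of falls. The part of the level trend in these falls was not tested.

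**Figure D4:**
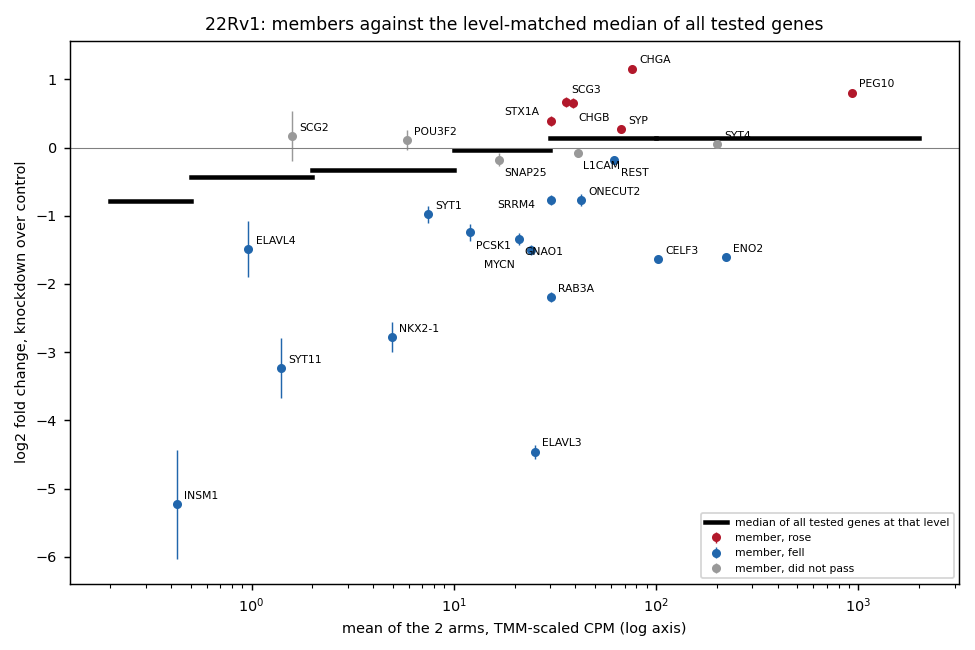
log2 fold change of each tested member in 22Rv1 against its mean level (TMM-scaled CPM, log axis), with bars of 1 SE; black segments give the median of all tested genes within a range of levels. ELAVL3, RAB3A, CELF3 and ENO2 lie far below the segments, and CHGA and PEG10 lie above them.

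C4-2B had 2 changes among the members tested. Of 10 members tested, 0 rose by edgeR, 2 fell and 8 did not pass, where 19.4% of all genes rose and 22.3% fell (41.7% in either direction). With library totals in place of TMM, the split over all genes went from 3068 up and 3516 down to 3871 up and 2922 down, and 1 member (ONECUT2, adjusted p = 0.0355) rose. The count of rises was also 0 at an unadjusted p under 0.05, with DESeq2 and with limma on loess-scaled values. The median change was -0.02 for the members and 0.01 for all genes. Shares over all C4-2B genes depended on level: 6.07% fell and 9.62% rose at 0.5 to 2 CPM. From 100 CPM, 39.5% fell and 25.3% rose. SYT11, L1CAM, SYP, ENO2 and NKX2-1 lay below 10 CPM in both arms. The part of level in the members' count was not tested.

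SYT4 had 136, 133 and 137 CPM in the C4-2B controls and 107, 107 and 114 CPM in the knockdowns. The arms did not overlap, and the fall was modest (-0.31 ± 0.05, adjusted p = 3.79e-06). NKX2-1 (chromosome 14, 36516392 to 36521149, minus strand) had 34, 53 and 75 reads in controls and 0, 2 and 9 in knockdowns, or 2.25, 2.78 and 3.03 CPM against 0.00, 0.11 and 0.55 CPM. NKX2-1 thus passed the filter on low counts through the control arm, which favours a fall. Its fall was -3.56 ± 0.58 (adjusted p = 3.22e-05), and -5.33 without knockdown library 3, which holds most of its knockdown reads. NKX2-1 fell in 22Rv1 as well, and the responses of C4-2B and 22Rv1 differed by -0.77 ± 0.67 (adjusted p = 0.345), by -2.56 (adjusted p = 0.0202) without that library.

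The other 8 members tested in C4-2B did not pass. RAB3A had 17.2 ± 1.88 and 17.2 ± 1.80 CPM, STX1A 12.7 ± 1.81 and 11.6 ± 0.57 CPM, and REST 62.2 ± 2.34 and 60.6 ± 1.49 CPM in control and knockdown. ENO2 gave 3.49 ± 0.16 and 4.74 ± 0.95 CPM with arms that did not overlap (0.44 ± 0.22, adjusted p = 0.113). It passed when all 18 libraries were fitted together (adjusted p = 0.00886). ONECUT2 gave 0.16 ± 0.08, SYT11 0.76 ± 0.45, L1CAM 0.07 ± 0.36 and SYP -0.52 ± 0.34, of which SYP passed in the joint fit (adjusted p = 0.0356). Of the 8 members too low to test, 7 had intervals of the read ratio that include 1. CELF3 had 9 and 19 reads in control and knockdown, a ratio of knockdown over control of 2.62 (exact 95% interval 1.13 to 6.58, counting error only), and 1.25 ± 1.03 with no filter (adjusted p = 0.417).

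In DU145 the largest fold changes among these genes were rises from a low level, while the smallest adjusted p-values were those of PEG10, REST and STX1A, which are expressed at a high level. Of 23 members tested, 7 rose, 3 fell and 13 did not pass, where 24.1% of all genes rose and 23.6% fell (47.6% in either direction). Rises of 2-fold or more were found for 3 of the 23 members and for 3.7% of all genes, and falls of that size for 0 members, whose lowest value was -0.67, and 4.52% of all genes. The median was 0.15 for the members and 0.01 for all genes. Of all DU145 genes under 0.5 CPM, 3.98% fell and 5.17% rose, and from 100 CPM 32.7% fell and 36.1% rose. The part of level in the members' count was not tested. Arms did not overlap for 11 of the 23 members tested, 9 of them among the 10 changed, and for 54.8% of all genes.

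FOXA2, POU3F2 and SCG5 were the 3 with the largest rises in DU145, and all were under 0.5 CPM in the controls. FOXA2 (chromosome 20, 22581005 to 22585455, minus strand) had 10, 13 and 12 reads in controls and 70, 65 and 51 reads in knockdowns, or 0.48, 0.31 and 0.36 CPM against 1.92, 2.28 and 1.43 CPM. Every knockdown library was above every control (2.33 ± 0.32, adjusted p = 7.48e-07). POU3F2 (chromosome 6, 98834592 to 98839470, plus strand) had 0.43, 0.33 and 0.39 CPM in controls and 1.40, 2.21 and 1.57 CPM in knockdowns (2.18 ± 0.32, adjusted p = 2.38e-06). For SCG5 the controls had 0.48, 0.26 and 0.36 CPM and the knockdowns 0.93, 0.88 and 1.23 CPM (1.52 ± 0.37, adjusted p = 0.00124). SCG5 passed the filter on low counts through the knockdown arm, which favours a rise. Neither POU3F2 nor SCG5 had overlapping arms, and all 3 genes ended between 0.88 and 2.28 CPM in knockdown.

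The vesicle genes of DU145 moved by less. SNAP25 had 1.24, 1.05 and 1.25 CPM in controls and 2.31, 1.89 and 2.18 CPM in knockdowns (0.86 ± 0.23, adjusted p = 0.00275). STX1A had 28.0, 29.3 and 29.3 CPM in controls and 19.8, 21.6 and 22.2 CPM in knockdowns (-0.45 ± 0.06, adjusted p = 6.87e-07). Both had separate arms. BUD23, the overlapping gene, fell beside STX1A (-0.41 ± 0.05, adjusted p = 2.41e-08). SYT11 rose from 2.17 ± 0.52 to 2.94 ± 0.41 CPM with overlapping arms (0.47 ± 0.19, adjusted p = 0.0423). That call was lost without control 2 (adjusted p = 0.191), control 3 (0.12), knockdown 1 (0.0656) or knockdown 3 (0.151), with a filter of 1 CPM in 3 libraries (0.0556), with DESeq2 (0.121) and in the joint fit of 18 libraries (0.18). SYT1 was at 6.19 ± 0.44 and 6.78 ± 0.58 CPM (0.14 ± 0.11, adjusted p = 0.287), RAB3A at 1.58 ± 0.02 and 1.20 ± 0.12 CPM (-0.40 ± 0.25, adjusted p = 0.199) and SYP at 0.93 ± 0.13 and 1.24 ± 0.25 CPM (0.43 ± 0.29, adjusted p = 0.247).

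UCHL1 (chromosome 4, 41256413 to 41268455, plus strand) was the most abundant member in DU145, where 22Rv1 and C4-2B had at most 0.63 CPM in any library. Its controls had 627, 640.1 and 615 CPM and its knockdowns 560, 594 and 521 CPM, a small fall without overlap (-0.17 ± 0.05, adjusted p = 0.00717). The fall did not pass without knockdown 1 (adjusted p = 0.0723) or knockdown 3 (adjusted p = 0.116). ENO2 rose from 25.6 ± 0.98 to 30.6 ± 2.06 CPM (0.26 ± 0.06, adjusted p = 0.00103). L1CAM had 1.38, 1.31 and 1.42 CPM in controls and 0.99, 0.77 and 0.81 CPM in knockdowns, and just missed the threshold (-0.67 ± 0.28, adjusted p = 0.0502). NCAM1 was at 1.95 ± 0.70 and 1.77 ± 0.78 CPM (-0.08 ± 0.36, adjusted p = 0.888) and GNAO1 at 1.84 ± 0.42 and 1.53 ± 0.63 CPM (-0.23 ± 0.28, adjusted p = 0.563), with wide and overlapping arms.

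REST fell in DU145, from 65.3, 66.5 and 64.9 CPM to 51.2, 51.5 and 50.2 CPM. The libraries of each arm lay within 2 CPM of each other (-0.36 ± 0.05, adjusted p = 5.72e-07). NOA1, which shares 23 exonic bases with REST, rose (0.39 ± 0.06, adjusted p = 4.71e-06). PEG10 rose from 316, 341 and 343 CPM to 486, 502 and 501 CPM (0.57 ± 0.05, adjusted p = 1.04e-10). NKX2-1 stood at 119, 126 and 128 CPM in controls and 117, 130 and 103 CPM in knockdowns, with overlapping arms (-0.09 ± 0.07, adjusted p = 0.332). Without knockdown 2 it passed as lower (-0.18, adjusted p = 0.0454), and without knockdown 3 its sign turned (0.02, adjusted p = 0.776).

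**Figure D5:**
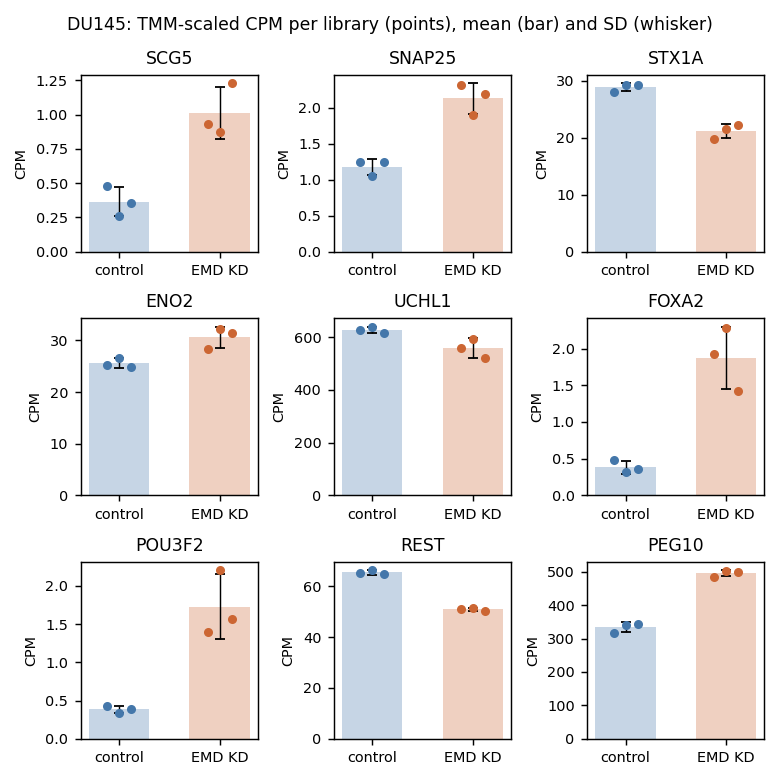
TMM-scaled CPM in DU145 for 9 members that changed, with 1 point per library, bars at the mean and whiskers of 1 SD (n = 3 per arm), each panel on its own axis from 0. FOXA2, POU3F2 and SCG5 rise from under 0.5 CPM, while STX1A, UCHL1 and REST stand lower in knockdown.

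ONECUT2 (0.26 ± 0.18), CELF3 (0.56 ± 0.41), ELAVL3 (0.22 ± 0.45), ELAVL4 (0.15 ± 0.38), SRRM4 (-0.32 ± 0.39) and PCSK2 (0.03 ± 0.42) did not pass in DU145, and the signs of ELAVL3, ELAVL4 and PCSK2 turned when single libraries were left out. Granule cargo other than SCG5 was too low to test. CHGA had 9 and 4 reads over control and knockdown, CHGB 20 and 29, SCG2 7 and 23, and SCG3 8 and 1. The ratio of knockdown over control was 3.27 for SCG2 (exact 95% interval 1.36 to 9.03) and the inverse ratio was 8.03 for SCG3 (1.08 to 357), for counting error only. With no filter neither passed (adjusted p = 0.121 and 0.141). NEUROD1, a neurogenic basic helix-loop-helix factor, had 32 and 17 reads (control over knockdown 1.89, interval 1.02 to 3.63; adjusted p with no filter 0.227). PCSK1, SYT4 and INSM1 had 6 and 4, 16 and 15, and 3 and 2 reads, and MYCN had 2 and 0.

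Of the 2 members that fell in C4-2B, SYT4 did not pass in 22Rv1 and NKX2-1 did not pass in DU145, so 0 members changed in all 3 lines. Only 9 members were tested in all 3 lines. Changes in both 22Rv1 and DU145 were seen for 5: REST fell and PEG10 rose in both, while SYT11 and ENO2 fell in 22Rv1 and rose in DU145, and STX1A did the reverse. Over all genes tested, 67.8% changed in 22Rv1 and 47.6% in DU145, and the share that changed in both was not computed. The count of 5 is therefore not read as particular to the members. The difference of the responses, 22Rv1 less DU145, was -3.75 ± 0.51 for SYT11 (adjusted p = 1.48e-07), -1.93 ± 0.08 for ENO2 (adjusted p = 3.12e-20) and 0.78 ± 0.11 for STX1A (adjusted p = 3.53e-07). For REST the difference did not pass (0.12 ± 0.07, adjusted p = 0.166), which does not show that the responses were alike. Of the 18 members in all 3 tables, responses differed for 12 between 22Rv1 and DU145 (55.6% of all genes), 10 between C4-2B and 22Rv1 (56.1%) and 7 between C4-2B and DU145 (45.7%). These shares lie near those of all genes, and each difference carries the batch, table and medium of its lines. EMD itself was lowered less in 22Rv1 (C4-2B less 22Rv1 -1.29 ± 0.14, 22Rv1 less DU145 1.42 ± 0.14), and the part of that in these differences was not tested.

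For all lists from here on, the shares over all genes tested were 33.5% up and 34.3% down in 22Rv1. They were 19.4% and 22.3% in C4-2B, and 24.1% and 23.6% in DU145. Of all 22Rv1 genes at 2 to 10 CPM, 46.3% fell and 17.2% rose, and the part of level in the lists was not tested. Some list genes passed the filter on low counts through 1 arm alone, which favours a fall or a rise. The counts and medians of the lists include them. Other genes of granule and synaptic exocytosis, from a list of 30, also split in 22Rv1. Of 24 tested, 7 rose, 14 fell and 3 did not pass (median -0.37). VGF, a granule peptide precursor, rose from 526 ± 42.3 to 1201 ± 29.7 CPM (1.19 ± 0.05) and RAB27B, a granule GTPase, rose by 1.11 ± 0.18. SYN2, a synapsin, fell from 1.80 to 0.22 CPM (-3.18 ± 0.61), and passed that filter through the control arm. In C4-2B 6 of 18 rose and 3 fell (median 0.20), with VGF up (0.71 ± 0.14) and PTPRN2, a granule phosphatase-like protein, up (0.44 ± 0.09), while RAB3B fell from 222 ± 7.35 to 147 ± 12.4 CPM. In DU145 7 of 25 rose and 9 fell (median -0.12). PAM, which amidates peptides, fell there from 177 ± 5.31 to 73.6 ± 5.15 CPM (-1.27 ± 0.05), RAB27B (-1.32 ± 0.14) and the complexin CPLX1 (-0.96 ± 0.19) fell, while the monoamine transporter SLC18A2 rose (0.97 ± 0.22).

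Genes of neuronal cytoskeleton, adhesion and signalling, from a list of 25, fell more often than they rose in 22Rv1 (12 down, 2 up, of 18; median -0.39). The neurofilament NEFL (-3.54 ± 0.40), the synaptic adhesion gene NRXN2 (-2.39 ± 0.10), the kinase subunit CAMK2B (-1.34 ± 0.09) and the motor KIF5C (-1.08 ± 0.06) fell there. NEFL went from 3.44 to 0.31 CPM and passed the filter on low counts through the control arm, which favours a fall. In DU145 7 of 24 rose and 3 fell (median 0.31). NEFL rose there from 2.94 ± 0.23 to 22.2 ± 1.91 CPM (2.90 ± 0.09), the motor KIF1A by 1.90 ± 0.19, tau (MAPT) by 1.29 ± 0.09 and BEX2 by 1.13 ± 0.10. C4-2B had 2 up and 3 down of 12 (median 0.00), with BEX2 (0.80 ± 0.06) and NLGN1, a synaptic adhesion gene (0.55 ± 0.09), up and DPYSL3 (-1.10 ± 0.35) and GDAP1 (-0.43 ± 0.14) down.

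A list of 21 genes, mostly neuroendocrine and neurogenic transcription factors, also held the Notch ligand DLL3 and the receptor NOTCH1. It had 10 down of 15 tested in 22Rv1, and the other 5 did not pass (median -0.90). DLL3, an inhibitory Notch ligand and a drug target in neuroendocrine tumours, fell from 31.7 ± 3.50 to 3.07 ± 0.53 CPM (-3.34 ± 0.13). NEUROD2 (-4.18 ± 0.60), the tuft cell factor POU2F3 (-3.53 ± 0.51) and MYT1 (-1.78 ± 0.10) fell as well. NEUROD2 went from 1.33 to 0.06 CPM and POU2F3 from 2.05 to 0.17 CPM. Both passed the filter on low counts through the control arm, which favours a fall. In C4-2B 3 of 11 rose, among them MYT1 (1.49 ± 0.41), NOTCH1 (0.59 ± 0.05) and HES6 (0.45 ± 0.05), and LHX2 fell (-0.77 ± 0.20). In DU145 4 of 17 rose and 1 fell. LHX2, a LIM homeobox factor, rose there from 2.74 ± 0.57 to 26.0 ± 1.96 CPM (3.29 ± 0.11), SOX4 by 0.61 ± 0.06 and DLL3 by 0.38 ± 0.10, and the receptor NOTCH1 fell from 25.9 ± 1.28 to 12.0 ± 0.13 CPM (-1.11 ± 0.07).

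The 20 genes of the REST co-repressor machinery were all tested in each line. There were 10 up and 5 down in 22Rv1, 11 up and 4 down in DU145, and 3 up and 5 down in C4-2B, with medians of 0.13, 0.17 and 0.04. Over all genes tested, 67.8%, 47.6% and 41.7% changed in these lines. CTDSP2, of a phosphatase family that stabilises REST, fell in 22Rv1 from 170.4 ± 5.93 to 62.0 ± 3.05 CPM (-1.46 ± 0.05) and in C4-2B (-0.74 ± 0.05). PHF21A, a subunit of the demethylase complex, rose in 22Rv1 (0.86 ± 0.05) and DU145 (0.54 ± 0.07). RCOR2, a CoREST paralog, fell in 22Rv1 (-0.75 ± 0.14) and rose in DU145 (2.37 ± 0.26). CTDSP1 rose in 22Rv1 (0.54 ± 0.05), KDM5C (0.39 ± 0.05) and HDAC2 (0.38 ± 0.05) rose in DU145, and in C4-2B HMG20B (-0.51 ± 0.05) and the demethylase KDM1A (-0.36 ± 0.05) fell while EHMT2 rose (0.43 ± 0.06).

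Of 20 other splicing and RNA-binding genes, 5 of 19 tested rose and 11 fell in 22Rv1 (median -0.53). RBFOX3, the neuronal antigen NeuN (-3.55 ± 0.54), MBNL2 (-2.64 ± 0.16), NOVA2 (-1.78 ± 0.13) and CELF5 (-1.66 ± 0.15) fell. RBFOX3 went from 1.25 to 0.09 CPM and passed the filter on low counts through the control arm, which favours a fall. In DU145 7 of 19 rose and 2 fell (median 0.18). The epithelial splicing factors ESRP2 (0.73 ± 0.05) and ESRP1 (0.72 ± 0.14) and MBNL2 (0.50 ± 0.07) rose there and CELF4 fell (-0.91 ± 0.13). C4-2B had 4 up and 1 down of 15 (median 0.02), with CELF6 (1.60 ± 0.55), NOVA1 (0.59 ± 0.13) and SRRM3 (0.40 ± 0.11) up and MBNL1 (-0.28 ± 0.05) down. CELF6 went from 0.34 to 1.01 CPM and passed that filter through the knockdown arm, which favours a rise. Genes from these 5 lists were named only if they passed the edgeR threshold with arms that did not overlap, so neither property is a finding. Their adjusted p-values were at most 0.0228.

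Markers of other cell types moved too. The summed level of 12 luminal prostate markers was 3367 to 3509 CPM in the 22Rv1 controls and 2751 to 2758 in its knockdowns, 2070 to 2227 and 1032 to 1125 CPM in DU145, and 6942 to 7030 and 6654 to 6707 CPM in C4-2B. Of these, 2 rose and 6 fell of 11 tested in 22Rv1, 1 rose and 3 fell of 9 in DU145, and 4 rose and 5 fell of 12 in C4-2B. TMPRSS2 fell in 22Rv1 (-2.73 ± 0.06) and the keratin KRT8 in DU145 (-1.63 ± 0.05). Most of the DU145 sum is KRT8, at 1243 and 403 CPM in control and knockdown, and KRT18, at 773 and 534 CPM. FOXA1 rose there, and the median log2 fold change of the tested luminal markers was 0.05. Of 10 glial markers, 1 rose and 3 fell of 4 tested in 22Rv1, 2 fell of 4 in DU145, and 1 rose and 1 fell of 3 in C4-2B. Their sum was 89.3 to 92.0 and 90.6 to 105 CPM in 22Rv1, 49.3 to 51.2 and 35.9 to 38.3 CPM in DU145, and 78.3 to 85.2 and 96.6 to 100.3 CPM in C4-2B. Most of the 22Rv1 sum is MBP, which rose from 77.4 ± 1.05 to 93.3 ± 7.81 CPM (0.27 ± 0.05), while OLIG2 (-2.58 ± 0.19) and OLIG1 (-2.44 ± 0.30) fell.

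Blood cell markers (10 genes) summed to 15.2 to 17.6 CPM in the 22Rv1 controls and 3.30 to 4.05 in its knockdowns, 95.1 to 95.8 and 29.4 to 32.4 CPM in DU145, and 4.97 to 6.88 and 3.16 to 3.64 CPM in C4-2B. Most of the DU145 sum is CD68, a lysosomal protein of macrophages, which fell from 94.1 ± 0.55 to 29.3 ± 1.53 CPM (-1.68 ± 0.05). Most of the 22Rv1 control sum is HBA1, which fell from 12.1 to 2.01 CPM. Of the blood cell markers, 3 fell of 3 tested in 22Rv1, 1 rose and 1 fell of 3 in DU145, and 1 fell of 2 in C4-2B. Fibroblast and endothelial markers (10 genes) summed to 2.93 to 3.53 CPM in the controls and 0.81 to 1.12 in the knockdowns of 22Rv1, to 22.1 to 25.1 and 14.4 to 15.8 CPM in C4-2B, and to 3.75 to 6.25 and 6.31 to 7.88 CPM in DU145. Most of the C4-2B sum is VWF, which fell from 21.5 ± 1.23 to 13.6 ± 1.04 CPM. The sums of the arms were separate in every line, lower in knockdown in 22Rv1 and C4-2B and higher in DU145. There 2 of 7 tested rose, while 1 of 2 fell in each of the other lines. In 22Rv1, 4 of the 10 blood cell markers and 2 of the 10 fibroblast and endothelial markers had no read or no entry, as had 6 of each in C4-2B and 0 of each in DU145. The part of these markers in the members' changes was not tested.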

How the data were processed

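Gene-level RNA-seq counts of 18 libraries were used. The deposited values are RSEM expected counts, already whole numbers. The submitters' processing notes name STAR, RSEM 1.3.1 and the GRCh38 build; annotation release, strandedness and rounding are not given in the sources used here. From the DU145 table, 92 spike-in sequences and 30 second pseudoautosomal copies were left out. Replicate numbers were checked and gave no sign of pairing outside DU145, where pairing or a shared batch is not settled. The main fits took the libraries as unpaired, and a replicate block was fitted as an alternative.

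Each line was fitted alone in edgeR 4.0.16 (R 4.3.3): filterByExpr (minimum count 10, minimum total 15), TMM scaling, robust quasi-likelihood F test, and Benjamini-Hochberg adjustment over 15801 (C4-2B), 16656 (22Rv1) or 19377 (DU145) genes, at 0.05. SE is the absolute fold change divided by the root of F. Differences between lines came from 1 fit of all libraries on genes in all 3 tables. Alternatives used limma 3.58.1 and DESeq2 1.42.0. Scripts were tested on simulated data. Low counts were given as read ratios with exact Clopper-Pearson intervals at 95%, which cover counting error only, as the reads carry no molecular identifiers and are not independent. Deeper libraries lower that error. Exon lengths and overlaps come from GENCODE 29.

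The members and the 9 gene lists were chosen with earlier results of these data known. From each list and line, up to 4 genes are named: those with the largest change among genes past the threshold, with separate arms and at least 1 CPM in an arm, except that not all are repeated for the marker lists and 1 gene is not reported here.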

Additional observations from a re-analysis of the deposited data

Results flagged for a closer look

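The knockdown response of members differed between lines in 29 cases by the edgeR test of the difference itself, and that of EMD in 2. Values are differences of log2 fold changes ± SE with their adjusted p. The 3 comparisons share lines, and line, batch and table coincide. Members too low to test within a line entered the joint fit through other lines. Their side of a difference rests on few reads.

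C4-2B less 22Rv1 was positive for genes that fell in 22Rv1. SYT11 gave 4.05 ± 0.57 (adjusted p = 3.13e-07), CELF3 2.99 ± 0.56 (2.64e-05), RAB3A 2.23 ± 0.13 (1.06e-15), ENO2 2.09 ± 0.15 (4.74e-14) and SYT1 1.88 ± 0.57 (0.0057). In C4-2B, CELF3 had 9 and 19 reads and SYT1 17 and 26 over control and knockdown, too few to be tested there. ONECUT2 gave 0.97 ± 0.12 (1.22e-08) and REST 0.19 ± 0.07 (0.0259). Genes that rose or did not pass in 22Rv1 gave negative differences. SYP stood at -0.78 ± 0.23 (0.00385), STX1A at -0.45 ± 0.13 (0.00333) and SYT4 at -0.31 ± 0.07 (0.000254). EMD gave -1.29 ± 0.14 (9.78e-09). SYT1 lost its call without C4-2B knockdown 2 (1.01, adjusted p = 0.221) and SYP without C4-2B control 3 (-0.43, adjusted p = 0.125). REST lost its call in 7 of the 18 fits that leave out 1 library: without C4-2B control 1 or 2, C4-2B knockdown 2, 22Rv1 control 1, 22Rv1 knockdown 1 or 3, or DU145 control 1, with adjusted p from 0.05 to 0.113. SYT11 moved to 5.18 without 22Rv1 knockdown 1 and CELF3 to 2.39 without C4-2B control 3.

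C4-2B less DU145 was led by transcription factors. NKX2-1 gave -3.51 ± 0.49 (adjusted p = 7.47e-06), and -5.29 without C4-2B knockdown 3. POU3F2 gave -2.86 ± 0.59 (0.000153), SCG5 -2.31 ± 0.87 (0.0292), SYP -1.03 ± 0.30 (0.00546), L1CAM 0.74 ± 0.31 (0.0462), STX1A 0.32 ± 0.13 (0.0382) and REST 0.31 ± 0.07 (0.000579). In C4-2B, POU3F2 had 21 and 11 reads and SCG5 25 and 12 over control and knockdown, too few to be tested there. SYP lost its call without C4-2B control 3 (-0.68, adjusted p = 0.0651). L1CAM lost it in 14 of 18 fits that leave out 1 library (0.55 to 0.98 over all 18), and kept it without C4-2B control 2, C4-2B knockdown 1, 22Rv1 control 2 or DU145 knockdown 1. STX1A lost it in 8 (0.21 to 0.41 over all 18): without C4-2B control 3, C4-2B knockdown 1 or 2, 22Rv1 knockdown 2, DU145 control 2 or 3, or DU145 knockdown 1 or 2. SCG5 lost it in 6 (-3.37 to -1.81 over all 18): without C4-2B control 1, C4-2B knockdown 2 or 3, DU145 control 2 or 3, or DU145 knockdown 3. The lowest value, -3.37, was that without C4-2B knockdown 1.

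22Rv1 less DU145 was negative for 10 of its 12 members. SCG5 gave -5.69 ± 1.77 (adjusted p = 0.00708), but it had 0 reads in the 22Rv1 knockdown libraries, so this value depends on the prior count and is no bound. SYT11 gave -3.75 ± 0.51 (1.48e-07), and -4.90 without 22Rv1 knockdown 1. NKX2-1 gave -2.73 ± 0.25 (1.88e-08), CELF3 -2.24 ± 0.30 (1.13e-07), POU3F2 -2.13 ± 0.37 (9.39e-06), ENO2 -1.93 ± 0.08 (3.12e-20) and RAB3A -1.84 ± 0.20 (2.15e-09). GNAO1 gave -1.21 ± 0.35 (0.00663), SYT1 -1.18 ± 0.28 (0.00048) and ONECUT2 -1.11 ± 0.17 (9.68e-07). STX1A gave 0.78 ± 0.11 (3.53e-07), PEG10 0.17 ± 0.06 (0.0199) and EMD 1.42 ± 0.14 (9.39e-10). PEG10 lost its call without 22Rv1 control 2, 22Rv1 knockdown 1 or DU145 control 2 or 3 (0.13 to 0.22 over all 18 fits) and under library totals (0.10, adjusted p = 0.103).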

How the results depend on the processing

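Of 473 fold changes of members and EMD recomputed under other scalings, filters, tools, the replicate block or the joint fit, 451 kept their direction and side of the threshold, 4 lost their call, 11 gained one and 7 turned. The counts of members that rose became 1 in C4-2B under library totals and in the joint fit of 18 libraries, and 3 in 22Rv1 and 4 in DU145 in the joint fit, which holds only 18 members; members at or near 0 in 22Rv1 became 1 with thresholds of 0.5 and 0.05 CPM. Directions turned for REST in C4-2B (0.014 with library totals, 9.73e-06 with loess), RAB3A in C4-2B (0.045, library totals), L1CAM in C4-2B (-0.13, loess), SYT4 in 22Rv1 (-0.032, library totals, and -0.093, loess) and PCSK2 in DU145 (-0.0027, loess); the cause was not tested. In C4-2B and 22Rv1 same-numbered libraries did not deviate together (correlations of -0.04 to 0.03). In DU145 their correlations were all positive (0.04 to 0.29), but not every library correlated best with its own number. Pairing or a shared batch in DU145 is therefore not settled. With the replicate block no member called within a line lost its call, the DU145 falls went from 3 to 4 (L1CAM, -0.69, adjusted p = 0.0329), GNAO1 (C4-2B less 22Rv1, 0.96, adjusted p = 0.0413) and L1CAM (22Rv1 less DU145, 0.55, adjusted p = 0.0371) gained a call, and SRRM4 (C4-2B less DU145) turned to 0.14. L1CAM in DU145 also passed with size factors, loess, the 1 CPM filter and the joint fit. Leaving out 1 library at a time, members that differed between C4-2B and DU145 numbered 4 to 7, with 4 without C4-2B control 3, C4-2B knockdown 2, DU145 control 2 or DU145 control 3. Signs turned over ranges of -0.10 to 0.046 for RAB3A and -0.11 to 0.33 for L1CAM in C4-2B; -0.20 to 0.63 for SCG2 and -0.14 to 0.0021 for L1CAM in 22Rv1; and -0.41 to 0.062 for GNAO1, -0.13 to 0.19 for PCSK2, -0.18 to 0.021 for NKX2-1, -0.29 to 0.23 for NCAM1, -0.17 to 0.51 for ELAVL4 and -0.10 to 0.65 for ELAVL3 in DU145. Between lines they did so for SRRM4 (-0.61 to 1.10) and UCHL1 (-3.85 to 0.082) in C4-2B less 22Rv1, for SYT1 (-0.17 to 1.21), GNAO1 (-0.95 to 0.39), SYT4 (-0.54 to 0.48), SRRM4 (-1.19 to 0.52), UCHL1 (-0.18 to 0.75) and EMD (-0.047 to 0.29) in C4-2B less DU145, and for SYT4 (-0.23 to 0.79) in 22Rv1 less DU145. Depth limits the members given as read ratios, whose intervals are wide.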
